A study of Mus musculus with 8 samples.

Results

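The clustered histone genes are the genes whose symbols begin with Hist1h, Hist2h, Hist3h or Hist4h, and all 65 of the 15653 listed genes with such a symbol were taken. By class, they comprised 6 genes of linker histone H1, 18 of H2A, 16 of H2B, 12 of H3 and 13 of H4. In the GENCODE annotation of GRCm38, 52 lie on chromosome 13, 10 on chromosome 3, 2 on chromosome 11 and 1 on chromosome 6. Another 5 annotated genes with such names were not analysed here.

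The study sorted CD4-negative, CD8-negative (DN) thymocytes from C57BL/6J wild-type mice (WT) and from GSK3B knock-in mice (KI), in which the title places the change at Ser389 of the kinase GSK3B, a residue whose phosphorylation inactivates it. DN3 cells were sorted as CD44- CD25+ and rearrange the T cell receptor β locus, and DN4 cells were sorted as CD44- CD25- and have mostly passed β-selection. Each of the 4 groups (WT and KI, each at DN3 and at DN4) was 1 droplet library of 5′ transcript ends, in which each unique molecular identifier (UMI) counts 1 captured molecule. The number of mice behind a library, their age, and whether the libraries were made together are not given in the sources used here, so genotype and library cannot be told apart within a stage. A change at a single residue is not checked by the UMI count of Gsk3b.

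The 4 libraries held 10237 cells, between 1477 and 3298 each, with a median of 5495 to 9345 UMIs per cell. The 7 pre-selection DN3 marker genes summed to 1326 and 1155 CPM (the UMIs of a gene as a part of all UMIs of the same cells, scaled to a total of 1000000) in the WT and KI DN3 libraries and to 168 and 134 CPM in the WT and KI DN4 libraries. The deposited tables call each cell G1, S or G2M and place it in 1 of 10 clusters. Of the resting pre-selection DN3-like cells, cluster 0 was nearly all KI (2415 of 2535 cells) and cluster 1 nearly all WT (2146 of 2209 cells). Clusters 3 and 4 were mostly cells called S or G2M and are called blasts here. The 7 β-selected blast markers summed to 1214 CPM in cluster 4 but to 608 CPM in cluster 3. The latter was under cluster 2 (784 CPM) and cluster 5 (639 CPM), so the name is uncertain for cluster 3. Cluster 7 had the highest sum, 1803 CPM, and cluster 8 had 818 CPM. The markers include the cycling genes Mki67 and Top2a and do not single out cluster 4. Across libraries, 54 barcode sequences occurred more than once.

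Chromatin is wound on octamers of the core histones H2A, H2B, H3 and H4, and H1 binds the linker DNA between them. Dividing cells make most of this protein from the clustered genes while DNA is copied, and their mRNAs typically end in a conserved stem-loop bound by SLBP in place of a poly(A) tail. Histone variants encoded elsewhere in the genome, such as H2A.Z and H3.3, have ordinary polyadenylated mRNAs and are made outside S phase as well. Capture in this kind of library starts from a poly(A) tail, so a level here is the captured part of each gene's RNA and says nothing of the uncaptured part.

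The ends of the annotated transcripts are shown because the genes divided by them in the phase comparison. In the annotated 3′ UTRs, 43 of the 65 genes held the 16-base histone stem-loop consensus with up to 2 mismatches, and 33 held it exactly. In 22 it lay within the last 100 bases of a transcript. The stem-loops of 8 genes follow, with the stem-loop in capitals and its neighbouring bases in lower case, 5′ to 3′ on the transcript strand. The 6 genes with the largest S over G1 difference come first, then the abundant Hist1h1c and Hist3h2ba, whose annotated transcripts run on past it.
Hist1h3g: taaaGGCTCTTCTTAGAGCCacccatct
Hist1h3c: aaaaGGCTCTTTTAAGAGCCacctaaga
Hist1h3b: caaaGGCTCTTTTCAGAGCCacccacag
Hist1h2bk: caaaGGCTCTTTTAAGAGCCactaaacc
Hist1h2bm: caaaGGCTCTTTTCAGAGCCactaagca
Hist1h2ag: caaaGGCTCTTTTCAGAGCCacctaacc
Hist1h1c: aaaaGGCTCTTTTCAGAGCCaccactcc
Hist3h2ba: caaaGGCTCTTTTCAGAGCCaccttcca

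In the first 6, the annotated transcript ended 23 to 74 bases after the stem-loop. In Hist1h1c it went on for 840 bases and in Hist3h2ba for 169 bases. Both then reached the polyadenylation hexamer AATAAA, which stood within the last 50 bases of an annotated transcript in 13 of the 65 genes. The hexamers of the 5 genes with the lowest S over G1 difference are given in capitals with the bases around them.
Hist3h2a: gtatatgcccAATAAAataagagtac
Hist3h2ba: taatggtattAATAAAtttggttcaa
Hist4h4: gaggagatgaAATAAAtac
Hist2h2be: tattattattAATAAAgttaccgatt
Hist1h1c: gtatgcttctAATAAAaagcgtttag

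By annotation alone, 13 genes had such a hexamer end, 21 ended within 100 bases of a stem-loop, 13 ran on past a stem-loop without a hexamer, and 18 had no stem-loop found. Since 12 of the 65 genes had no annotated 3′ UTR, no match says only that the letters were not in the annotated sequence.

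RefSeq promoters (GRCm38.p6, 250 bases before to 50 after the start) were available for 59 of the 65 genes, as 60 sequences. The octamer ATTTGCAT, read on both strands, is the element bound by OCT1, encoded by Pou2f1, and stood in 21.7% of them and in 1.74% of all 32851 promoters. All of the matches were in H2A (7 of 17) and H2B (6 of 15) promoters, and none was in those of H1, H3 or H4. The pentamer CCAAT (both strands) stood in 85% against 37.4% of all promoters, with 25% in H4 and 100% in every other class. The TATA box letters TATAAA (both strands) stood in 56.7% against 13.6%. The octamers of 4 H2A and H2B genes are shown on each gene's own strand, in capitals, because they form pairs.
Hist1h2ae: atagaggttctATGCAAATaagggactcaa
Hist1h2bg: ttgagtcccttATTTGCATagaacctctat
Hist1h2ah: tagaacttcgtATGCAAATaaagtgaaatg
Hist1h2bk: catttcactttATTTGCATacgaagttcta

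Hist1h2ae and Hist1h2bg are transcribed in opposite directions and their promoters hold the same octamer, as do those of Hist1h2ah and Hist1h2bk, so that the 13 genes with an octamer had 11 distinct octamers. The S over G1 difference did not follow the octamer. The 12 tested H2A and H2B genes with it had a median log2 difference of 2.01 (range -1.68 to 3.88), and the 12 without it had a median of 1.98 (range -0.93 to 3.61).

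All 65 genes had at least 1 UMI, but their levels were low and uneven. They gave 113273 UMIs, or 0.119% of all UMIs. In each of 19 genes at least 1 library reached 20 CPM, 11 genes stayed under 1 CPM in every library, and the 12 highest held 72.2% of the UMIs. CPM is not divided by transcript length, because each UMI is 1 molecule. The linker genes Hist1h1a to Hist1h1e alone held 41.8%, and Hist1h1t, the testis linker histone, was nearly unread with 3, 0, 2 and 2 UMIs. Where 4 values are listed, here and below, the DN3 libraries come before the DN4 libraries, and WT before KI within a stage.

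Hist1h1a, a linker histone of proliferating cells, had the highest mean, with levels of 211, 78.9, 151 and 85.4 CPM. Hist1h1b followed with 107, 117, 147 and 148 CPM, and Hist1h1d with 145, 79.5, 145 and 66.1 CPM. The WT libraries stood above the KI libraries without overlap for Hist1h1a and Hist1h1d, but Hist1h1b followed stage instead. Hist1h1e had 79.1, 70.5, 133 and 93.8 CPM, highest in WT DN4. Hist1h2bj, the most abundant core histone gene, had 98, 33.8, 123 and 95.4 CPM, and its KI DN3 library stood far below the other 3.

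**Figure D1:**
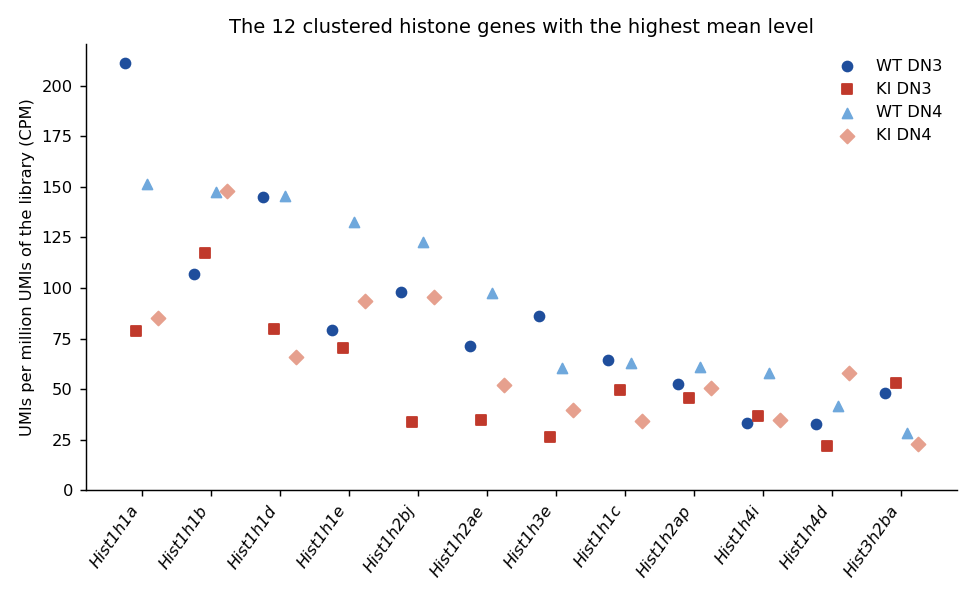
Level (CPM, linear axis from 0) of the 12 clustered histone genes with the highest mean, with 1 point per library and no error bar because each group is 1 library. Hist1h1a reached 211 CPM in WT DN3 and 78.9 CPM in KI DN3, while Hist3h2ba was higher in both DN3 libraries (47.9 and 53.2 CPM) than in both DN4 libraries (28.2 and 22.7 CPM).

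Among the other abundant genes, Hist1h2ae had 71.3, 34.7, 97.6 and 52.2 CPM, both KI libraries under both WT libraries. Hist1h3e had 86.4, 26.4, 60.7 and 39.8 CPM, again without overlap between genotypes. Hist3h2ba, an H2B gene outside the large cluster on chromosome 13, had 47.9, 53.2, 28.2 and 22.7 CPM and alone among the 12 was higher in both DN3 libraries than in both DN4 libraries. By class, H1 had 607, 396, 640 and 428 CPM, H2A 244, 150, 306 and 220 CPM, and H2B 262, 160, 282 and 229 CPM. H3 had 170, 82.4, 156 and 92.5 CPM, and H4 125, 87.7, 159 and 140 CPM. The KI library was the lower of its stage in all 5 classes.

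Reads can be shared between members. Of the 65 genes, 59 shared at least one 90-base stretch of transcript with another annotated gene, and 26 shared most of theirs. Hist1h2be also overlaps Hist1h1e on the same strand, so its count is uncertain. Class sums may be affected less than single genes, but this was not tested. Some stretches were shared with genes outside the members, such as H2afx and Trim17. Of the abundant genes, Hist1h1a and Hist1h1b shared no such stretch, while Hist1h2ap shared 92.4% of its stretches and Hist1h3e 50.2%. These shares cover whole annotated transcripts, whereas the libraries read 5′ ends, so a long unshared 3′ UTR lowers them. Hist1h2ac, for example, shared 9.28%, but 2058 of its 2482 bases are 3′ UTR. Sharing near the 5′ end alone is not given, so a low share does not make a count certain.

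Cell cycle phase was compared first, within each library. Over all cells of a library, most clustered histone genes were higher in cells called S than in cells called G1, and their sum was higher still in cells called G2M. Within single clusters these orders did not hold throughout. The sum of all members in G1 cells was 870, 665, 681 and 434 CPM. In S cells it was 1711, 893, 1767 and 1164 CPM, and in G2M cells 3350, 1467, 2235 and 1480 CPM. In all 4 libraries the order was G1, then S, then G2M. The WT DN3 G2M value stood above the rest and came from 137 cells. The mean S over G1 ratio of the sum was 2.07-fold (log2 1.05 ± 0.46, SD, n = 4 libraries), and G2M over G1 was 3.12-fold (log2 1.64 ± 0.35, SD, n = 4).

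**Figure D2:**
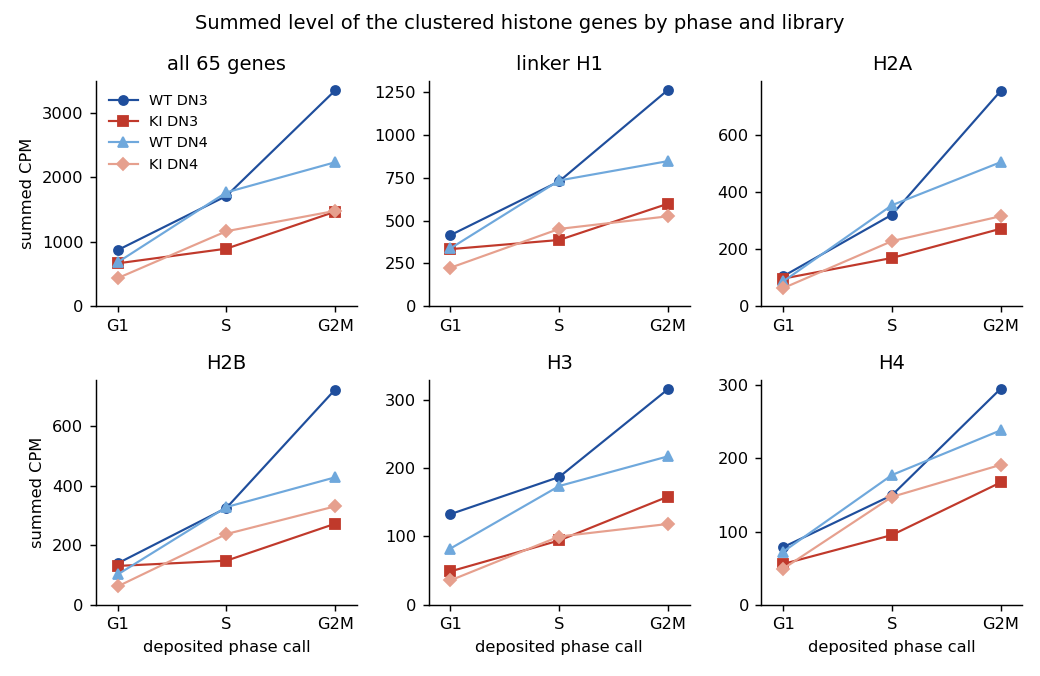
Summed level (CPM, linear axes from 0) of all 65 genes and of each histone class in cells called G1, S and G2M, with 1 line per library. The sum over all genes went from between 434 and 870 CPM in G1 cells to between 1467 and 3350 CPM in G2M cells, and WT lines lay above KI lines of the same stage.

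Of the 54 genes with enough UMIs to test, 44 were higher in S than in G1 cells and 2 were lower (edgeR quasi-likelihood test, Benjamini-Hochberg adjusted p under 0.05). Across all 11502 tested genes, 29.6% were higher and 35.1% lower. The members' median log2 difference was 1.73, and that of all tested genes was -0.14. In 40 of the 54 genes the S level was above the G1 level in all 4 libraries, and in 5 it was below in all 4 (no share over all genes is given). S and G1 cells were also compared within each cluster and library that held at least 20 cells of both. There 3 of 25 tested members were higher in S, Hist1h2bm (1.79), Hist1h2bj (0.88) and Hist1h2bh (1.03), and 1, Hist1h1c (-0.58), was lower (edgeR, 7 at an unadjusted p under 0.05). Neither share was above the background (13.4% higher and 10.2% lower), and the members' median was 0.070. The 9 pairs of cluster and library were the blocks of this fit, and some came from the same library. Its p-values therefore measure the spread between pairs and not between libraries. For G2M against G1 cells, 48 members were higher and 0 were lower (background 29.2% and 32.9%), with a median of 2.43; 48 had an unadjusted p under 0.05 in either direction, and DESeq2 called 47 higher and 0 lower.

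The class with the largest rise in its sum was H2A, at 2.98-fold S over G1 (log2 1.58 ± 0.54, SD, n = 4), with 12 of 13 tested genes higher and 1 lower. H2B rose 2.4-fold, with 10 of 14 genes higher and 1 lower. H4 rose 2.21-fold with 11 of 13 higher, and H3 rose 2-fold with 8 of 9 higher. H1 rose least, at 1.73-fold (log2 0.79 ± 0.40, SD, n = 4), with 3 of 5 tested genes higher. The ranges of these class ratios over the 4 libraries overlapped, and their differences were not tested.

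Hist1h3g, a core H3 gene with a stem-loop end, had the largest difference. It had 0.30, 0.079, 0.41 and 0.69 CPM in G1 cells and 14.9, 8.12, 22.5 and 13.1 CPM in S cells. The phases did not overlap, and the log2 difference was 5.68 ± 0.30 (SE; edgeR adjusted p = 5.1e-07). Its G1 levels lay near the floor, with 4 UMIs in 2076 WT DN3 G1 cells of cluster 1 and 1 UMI in 2334 KI DN3 G1 cells of cluster 0. Nor was it read in all S cells: in cluster 6 it had 1 UMI in 167 WT DN3 and 0 in 221 KI DN3 S cells. Hist1h3c followed, with 0.23, 0.079, 0.81 and 0.34 CPM in G1 and 5.95, 6.49, 10.0 and 7.09 CPM in S cells, a log2 difference of 4.85 ± 0.32. It too was near the floor in G1 cells, so the size of both differences is uncertain. The other 4 of the highest 6 were Hist1h3b (4.23), Hist1h2bk (3.88), Hist1h2bm (3.79) and Hist1h2ag (3.61), and all 6 ended at a stem-loop.

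Among abundant genes, Hist1h2bj had 22.2, 6.97, 18.1 and 8.58 CPM in G1 cells and 148, 46.7, 156 and 103 CPM in S cells, a log2 difference of 3.32 ± 0.18 (SE). Hist1h1a had 125, 42.7, 52.5 and 18.2 CPM in G1 and 290, 104, 196 and 97.5 CPM in S cells, a log2 difference of 1.95 ± 0.19. Hist1h1b had 53.2, 84.5, 13.6 and 24.7 CPM in G1 and 140, 120, 190 and 168 CPM in S cells. Every S value of Hist1h1b lay above every G1 value, but its ratio was small in KI DN3 and large in both DN4 libraries.

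At the other end, Hist3h2ba had 63.4, 79.0, 37.5 and 28.5 CPM in G1 cells and 19.4, 22.7, 22.9 and 19.2 CPM in S cells. It was lower in S in all 4 libraries (log2 -0.93 ± 0.22, SE; edgeR adjusted p = 0.0043). Its neighbour Hist3h2a, at a mean of 1.33 CPM, was also lower (log2 -1.68 ± 0.41; edgeR adjusted p = 0.0052). Hist4h4 (-0.49), Hist2h2be (-0.40), Hist1h1c (-0.09) and Hist1h1e (0.30) did not pass the test. Hist1h1c, a linker histone made in resting as well as dividing cells, had 65.6, 59.4, 60.3 and 35.9 CPM in G1 and 52.4, 29.8, 59.8 and 31.5 CPM in S cells.

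The phase difference varied with the annotated transcript end. The 17 tested genes that ended at a stem-loop had a median log2 S over G1 difference of 3.23, and 16 of them were higher. The 16 tested genes with no stem-loop found had a median of 2.09, with 14 higher. The 12 that ran on past the stem-loop had a median of 1.07, with 10 higher. The 9 that ended at AATAAA had a median of -0.09, with 4 higher and 2 lower. The groups overlapped: Hist1h4j, with a hexamer end, had a difference of 3.29. The difference between these groups was not tested, and genes of one class share sequence.

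**Figure D3:**
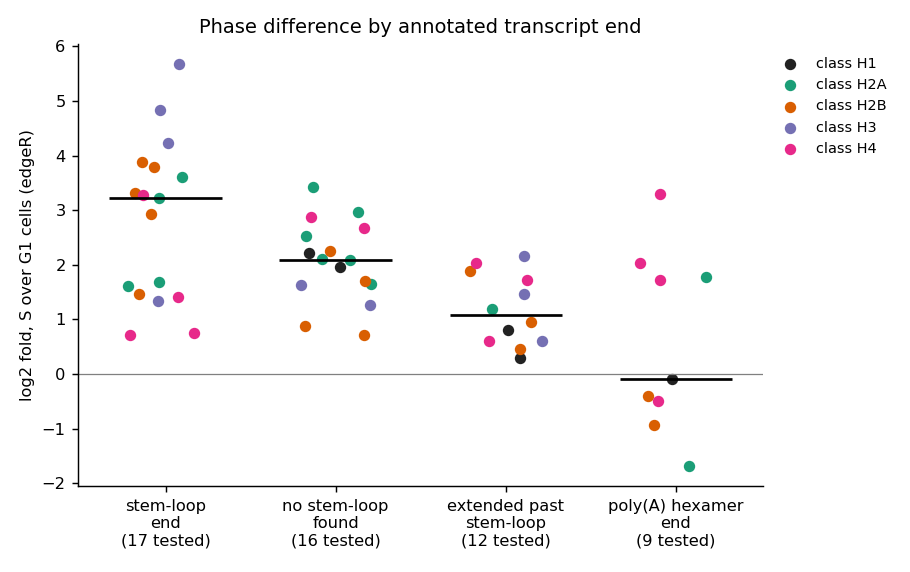
Log2 S over G1 difference (edgeR, 12 library and phase sums) of each tested gene, grouped by its annotated transcript end and coloured by histone class, with the group median as a line. Medians fell from 3.23 for a stem-loop end to -0.09 for a poly(A) hexamer end, with overlap between the groups.

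Cells called S and G2M were closer to each other. None of the 54 genes was higher in S than in G2M cells and 9 were lower (edgeR, background 2.61% and 3.51%), with a median of -0.56; 31 had an unadjusted p under 0.05. In 37 of the 54 genes the G2M level was above the S level in all 4 libraries (no share over all genes is given). The 9, named after their values were seen, were Hist1h2ab, Hist1h2af, Hist2h2ac, Hist1h2bb, Hist1h2bj, Hist2h2bb, Hist1h3c, Hist1h3f and Hist1h4d. Hist1h2bj, for example, had 351, 87.4, 192 and 143 CPM in G2M cells. Leaving out each library in turn left 1 to 4 genes, with fewer sums in the fit. Over clusters 3 and 4 together, 30 of 50 tested genes were lower in S than in G2M cells and 1, Hist1h2bc, was higher (background 14.2% lower and 15.4% higher). The 2 clusters taken singly went opposite ways. In cluster 4 the sum was higher in G2M than in S cells in all 4 libraries, by a log2 ratio of 0.30, 0.23, 0.065 and 0.13. In cluster 3, with 12, 23, 41 and 107 G2M cells, it was lower in G2M cells in all 4, with ratios of -0.40, -0.19, -0.39 and -0.66.

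The phase call is itself made from expression, by a method not given in the sources used here, and G1 cells were mostly other cells than S and G2M cells. Clusters 0, 1, 2 and 5 were 91.1 to 96.5% G1, cluster 3 was 81.5% S, and cluster 4 was 53.5% S and 46.5% G2M. The S against G1 comparison over all cells therefore mixes phase with cluster. Of the 9 pairs of a cluster and a library with at least 20 cells of both phases, the sum was higher in S than in G1 cells in 4 and lower in 5. The exact Poisson 95% interval (counting error only) lay above 0 in 2 and below 0 in 4, and the log2 ratios ran from -1.36 in KI DN4 cells of cluster 5 to 0.90 in KI DN4 cells of cluster 3, where only 22 cells were called G1. In cluster 6, which had the most even mix, the sum was 496 CPM in 75 G1 cells and 513 CPM in 167 S cells of WT DN3, a log2 ratio of 0.048 (interval -0.13 to 0.23). In KI DN3 it was 366 CPM in 68 G1 cells and 342 CPM in 221 S cells, a ratio of -0.098 (interval -0.33 to 0.14). Cluster 4 held no G1 cell. Median UMIs per cell were 3992 to 5500 in G1 cells, 13466 to 19404 in S cells and 19294 to 20547 in G2M cells.

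Genes that act on histone mRNA were read in the same fit. Of the 28 tested genes for its transcription and 3′ end processing, 24 were higher in S than in G1 cells and 0 were lower (26 at an unadjusted p under 0.05), with a median log2 difference of 0.97. Slbp, the stem-loop binding protein, had 96.0, 74.8, 114 and 94.2 CPM in G1 cells, 425, 430, 529 and 501 CPM in S cells and 271, 237, 323 and 296 CPM in G2M cells. The phases did not overlap, and Slbp was higher in S than in G1 (log2 2.60; edgeR adjusted p = 2.2e-08) and also higher in S than in G2M cells (0.76; edgeR adjusted p = 0.00022). The histone sums, by contrast, were higher in G2M than in S cells of each library taken whole. Slbp is also among the S phase markers listed below, and phase calls are usually made from such genes. Its phase differences and their p-values may therefore follow from the call itself. The largest differences of this list were in Ccne2 (5.30) and Ccne1 (4.76), the cyclins E that with CDK2 start S phase, E2f1 (4.27), an activator of S phase genes, and Slbp.

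Of 24 histone chaperone and related genes, 19 were higher in S than in G1 cells and 2 were lower, with a median of 1.56. The largest differences were in Asf1b (4.76), which hands H3 and H4 to CAF-1, Chaf1a (3.93), the large CAF-1 subunit, Nasp (3.01), which holds soluble H3 and H4, and Mcm2 (2.64), a helicase subunit that binds histones at the fork. Of 11 tested histone genes outside the clusters, 8 were higher and 2 were lower. H2afz, which encodes H2A.Z, had 2.74, H2afy2 had 2.19, H2afx 1.85 and Cenpa, the centromeric H3, 1.19. H2afy2 lay near the floor, with 0.76, 0.47, 0 and 0 CPM in G1 cells, so the size of its difference is uncertain. All 20 G2 and M markers and 19 of 20 S markers were higher in S than in G1 cells. Phase calls are usually made from genes of these last lists, and whether genes of the other lists entered the call could not be checked.

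By deposited cluster, the sum of all members was highest in the blasts of cluster 4, at 2169 CPM, where 46.5% of cells were called G2M. Cluster 9, with 72 cells of which 80.6% were G2M, had 2088 CPM, and the cycling cluster 7 had 1871 CPM. Cluster 3, mostly S, had 982 CPM. Cluster 6, 72.7% S by the deposited call, had the lowest sum, 430 CPM, under the resting cluster 0 (681 CPM) and cluster 1 (870 CPM). The γδ T-like cluster 2 had 484 CPM, cluster 5 had 586 CPM, and cluster 8, with 88 cells, had 1101 CPM. These are descriptions, because the clusters were made from the same cells.

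Clusters 3 and 6 were both mostly S, yet every class sum was higher in cluster 3. H2B had 197 CPM in cluster 3, 54.4 CPM in cluster 6 and 429 CPM in cluster 4, and H4 had 110, 34.2 and 237 CPM. The resting clusters had another make-up. Hist3h2ba had 82.5 CPM in cluster 0, 63.9 CPM in cluster 1 and 20.9 CPM in cluster 3, whereas Hist1h2bj had 7.97, 20.8 and 81.2 CPM. Hist1h1e was highest in cluster 5, at 186 CPM, against 132 CPM in cluster 4, although 92% of cluster 5 cells were called G1. Hist1h1b in the same cluster 5 was at 9.45 CPM.

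The genotypes were then compared. Clustered histone genes were lower in KI than in WT cells at both stages, in all 5 classes by their sums over all cells, although the KI libraries held more cycling cells. The size of the difference varied by cluster, and it was near 0 in cluster 3 of DN4. The sum of all members was 1408 CPM in WT and 876 CPM in KI DN3 cells, 1.61-fold lower in KI (log2 -0.68, exact Poisson 95% interval -0.71 to -0.66). In DN4 cells it was 1542 and 1109 CPM, 1.39-fold lower in KI (log2 -0.48, interval -0.50 to -0.45). These intervals cover counting error only, and with 1 library per group there is no test within a stage. S and G2M cells made up 18.6% and 6.58% of KI DN3 cells against 15.8% and 4.75% of WT DN3 cells, and 35.7% and 16.4% of KI DN4 cells against 27.7% and 11.6% of WT DN4 cells. Marker sums of other cell types also moved with genotype. Double positive markers (7 of 7 genes) summed to 1142, 848, 855 and 636 CPM, and γδ T markers (8 of 8 genes) to 846, 710, 626 and 450 CPM, both lower in KI at each stage, and their part in the result was not tested.

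In each stage 50 of the 65 genes had a lower CPM in KI. That count includes genes with very few UMIs, and the share over all genes is not given for it. In DN3, 17 genes reached 20 CPM in either library, of which 6 were at least 2-fold lower in KI and 0 at least 2-fold higher (background over 5797 genes, 0.552% and 0.138%). The intervals of 14 lay below 0 and those of 3 above, against 27.5% below and 27.7% above over all 5797 genes. In DN4, 3 of 19 genes were at least 2-fold lower and 0 higher (background over 5592 genes, 0.59% and 0.0715%), with 14 intervals below 0 and 2 above, against 37.9% and 25.1% over all 5592 genes. Both comparisons had a median near 0 over all genes, at 0.0029 in DN3 and -0.046 in DN4.

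Hist1h2ac, an H2A gene, was the gene at least 2-fold lower in KI in both stages. It had 28.3 CPM in WT and 8.62 CPM in KI DN3 cells, 3.29-fold lower, and 26.8 and 12.8 CPM in DN4, 2.1-fold lower. In DN3 the others were Hist1h3e (3.27-fold), Hist1h2bj (2.89-fold), Hist1h1a (2.68-fold), Hist1h2ab (2.11-fold, from 21.3 to 10.1 CPM) and Hist1h2ae (2.06-fold). In DN4 they were Hist1h3a (2.44-fold, 40.5 CPM in WT and 16.6 CPM in KI) and Hist1h1d (2.2-fold). Over all cells Hist1h1b was not lower in KI, with a log2 KI over WT ratio of 0.13 in DN3 (interval 0.05 to 0.21) and 0.0054 in DN4 (interval -0.066 to 0.077). In S cells its ratio was -0.23 in DN3 and -0.18 in DN4, and in G2M cells -0.50 and -0.28, with all 4 intervals below 0. Within the S cells of cluster 3, however, Hist1h1b was higher in KI DN4 (153 CPM) than in WT DN4 (115 CPM).

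A fit over both stages, with genotype and stage as terms, gave the test that 4 libraries allow. It leaves 1 residual degree of freedom and borrows the spread from all genes, and its p-values measure only the spread between these libraries, since nothing says that they came from separate mice. Of 57 tested members, 14 were lower in KI and 0 higher (edgeR adjusted p under 0.05, background 3.24% lower and 1.97% higher of 12222 genes). At an unadjusted p under 0.05 there were 28. The members' median log2 difference was -0.46 and that of all tested genes -0.01. DESeq2 called 6 lower and 0 higher (background 1.12% and 0.933%).

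By role, 3 of 5 tested H1 genes were lower: Hist1h1a (log2 -1.07 ± 0.14, SE; edgeR adjusted p = 0.012), Hist1h1d (-0.94 ± 0.08; edgeR adjusted p = 0.0027) and Hist1h1c (-0.56 ± 0.10; edgeR adjusted p = 0.027). Of 15 H2A genes, Hist1h2ac (-1.32) and Hist1h2ae (-0.91) were lower. Of 14 H2B genes, Hist1h2bn (-1.44), Hist1h2bl (-1.07) and Hist1h2bb (-0.83) were lower. Of 10 H3 genes, Hist1h3e (-1.10), Hist1h3a (-0.89), Hist1h3f (-0.88) and Hist1h3i (-0.56) were lower. Of 13 H4 genes, Hist1h4c (-0.90) and Hist1h4m (-3.83) were lower, the latter with 31, 2, 15 and 2 UMIs only. The smaller calls outside the naming rule were named after their values were seen, because each class held few.

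Within each phase the sum was again lower in KI. In S cells the log2 KI over WT ratio of the sum was -0.94 in DN3 and -0.60 in DN4. In G2M cells it was -1.19 and -0.59, and in G1 cells -0.39 and -0.65. In DN3 G2M cells, 26 genes reached 20 CPM, all 26 had a ratio below 0, 17 were at least 2-fold lower and 0 higher (background 0.818% and 0.236%). Single genes were less uniform in DN3 G1 cells. There 7 of 11 genes at 20 CPM had a ratio below 0, with 6 intervals below 0 and 4 above. For these counts below and above 0 within a phase, no share over all genes is given. The fit on S cells alone called 20 of 50 tested genes lower and 0 higher (edgeR, background 2.7% and 1.46%, 33 at an unadjusted p under 0.05 in either direction). On G2M cells alone the fit called 2 of 49 lower and 0 higher (edgeR, 29 at an unadjusted p under 0.05, no background computed). Over clusters 3 and 4 together the fit called 16 of 52 lower and 0 higher (background 1.47% and 0.613%).

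Clusters 3 and 4 differed in level and in how many cells each library gave them, so they were also taken singly. In cluster 4 the sum was 3388 CPM in WT and 1469 CPM in KI DN3 cells (log2 -1.21, interval -1.24 to -1.17), and 2749 and 1709 CPM in DN4 cells (-0.69, interval -0.72 to -0.65). In cluster 3 it was 976 and 686 CPM in DN3 (-0.51, interval -0.61 to -0.41), and 1075 and 1006 CPM in DN4 (-0.097, interval -0.14 to -0.049). The DN4 cells of the 2 clusters were 242 and 251 in WT but 767 and 393 in KI, so that the KI sum over both held more of the cluster with the lower level. All 5 classes were lower in KI in cluster 4 at both stages. In cluster 3 of DN4, H1 (-0.32) and H3 (-0.30) were lower in KI, while H2A (0.13), H2B (0.11) and H4 (0.19) were higher, each with an interval off 0.

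Among single genes in cluster 3 of DN4, Hist1h1d had 149 CPM in WT and 73.9 CPM in KI cells (log2 -1.01), whereas Hist1h1b had 99.0 and 138 CPM (0.48) and Hist1h2bj 75.5 and 94.5 CPM (0.32). In cluster 4 all 3 were lower in KI at both stages, Hist1h1b by ratios of -0.54 in DN3 and -0.33 in DN4. The fit within cluster 4 called 23 of 50 tested genes lower and 0 higher (edgeR, background 1.39% and 0.787%, 35 at an unadjusted p under 0.05). Within cluster 3 it called 2 of 36 lower, Hist1h1d (-0.94) and Hist1h1c (-0.89), and 0 higher (edgeR, background 1.02% and 0.359%, 13 at an unadjusted p under 0.05). Among S cells the sum had a ratio of -0.54 in DN3 and -0.070 in DN4 in cluster 3, and of -1.19 and -0.74 in cluster 4.

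Hist1h1b was also higher in KI in G1 cells of both stages. It had 53.2 CPM in WT and 84.5 CPM in KI DN3 G1 cells, and 13.6 and 24.7 CPM in DN4 G1 cells, and was the 1 member higher in KI in the G1 fit (log2 0.75, edgeR adjusted p under 0.05, background 0.132%). The G1 fit called 4 of 38 lower (background 0.563%): Hist1h1a (-1.51), Hist1h3e (-1.51), Hist1h2bj (-1.40) and Hist1h1d (-0.71). Hist1h3e in G1 cells had 85.9 CPM in WT and 20.7 CPM in KI DN3. Whether the S over G1 difference itself differed by genotype was tested as an interaction. It was called for 0 members and for 0% of all genes (edgeR, 2 members at an unadjusted p under 0.05, DESeq2 0 members), so a difference between phases in the genotype effect was not detectable with these libraries.

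The difference was uneven along the genome. On chromosome 13 the genes form a first block, chr13:21715763-22043676, with 22 members, and a second block, chr13:23531050-23934851, with 30. The sum of the first block was 391, 301, 511 and 437 CPM, a log2 KI over WT ratio of -0.37 in DN3 and -0.22 in DN4. The sum of the second block was 890, 475, 922 and 579 CPM, with ratios of -0.91 and -0.67. Without its most abundant gene, Hist1h1b, the first block had ratios of -0.62 and -0.33, and the second without Hist1h1a had -0.78 and -0.64. In the second block 10 of 28 tested genes were lower in KI (edgeR, median -0.61), including Hist1h1a, Hist1h1c, Hist1h1d, Hist1h2ac and Hist1h3e, against 4 of 19 in the first (median -0.26), which holds Hist1h1b and Hist1h2bm. The 10 genes on chromosome 3 had a sum of 62.6, 36.4, 68.6 and 61.9 CPM, and 0 of 7 tested were called. The blocks were drawn after the values were seen, and the difference between them was not tested.

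**Figure D4:**
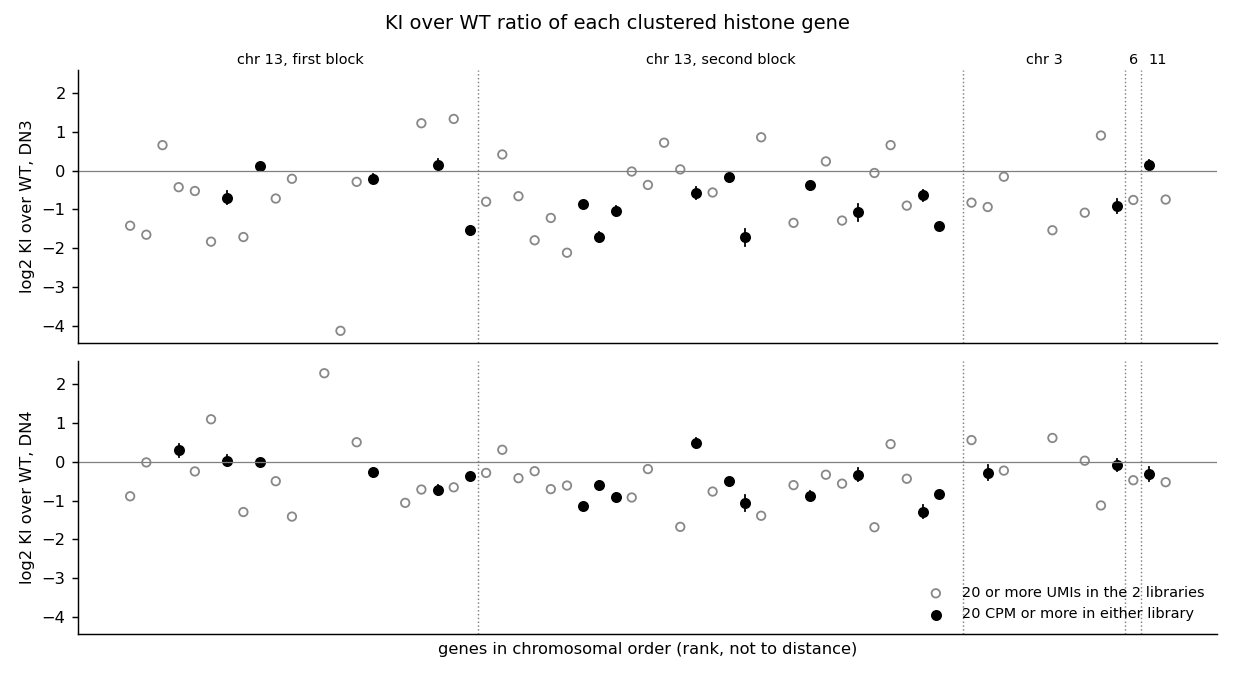
Log2 KI over WT ratio of CPM in DN3 (top) and DN4 (bottom) for each clustered histone gene with at least 20 UMIs in the 2 libraries, in chromosomal order, with genes at 20 CPM or more filled and given their exact Poisson 95% interval (counting error only). Most filled points lie below 0, and the second block on chromosome 13 has a log2 ratio of its sum of -0.91 in DN3 and -0.67 in DN4.

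Over all cells, companion gene lists went the other way or did not pass the test. In the same fit, 18 of 20 G2 and M markers and 7 of 20 S phase markers were higher in KI, and 0 of either were lower. Of 24 chaperone genes, 3 were higher, Supt16 (log2 0.60 ± 0.07, SE; edgeR adjusted p = 0.0096), Chaf1a (0.34) and Chaf1b (0.32), and 0 were lower. Supt16 encodes a subunit of FACT, which moves H2A and H2B during transcription and replication. Of 11 histone genes outside the clusters, H2afx (0.44) and Cenpa (0.33) were higher and 0 were lower. Of 29 genes for histone mRNA production, Cpsf2 (0.32), an endonuclease-complex subunit, was higher and 0 were lower. Slbp did not pass, at 0.09 ± 0.07 (SE; edgeR adjusted p = 0.47). An unadjusted p under 0.05, in either direction, was reached by 18 G2 and M markers, 12 S phase markers, 10 chaperone genes, 4 histone genes outside the clusters, and 9 genes for histone mRNA production. This fit took all cells, and the KI libraries held more S and G2M cells. In G2M cells alone the G2 and M markers went both ways. There Ccnb2 had 347 CPM in WT and 330 CPM in KI DN3 cells, and 357 and 342 CPM in DN4 cells. Top2a had 534 and 636 CPM in DN3, and 573 and 651 CPM in DN4.

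**Figure D5:**
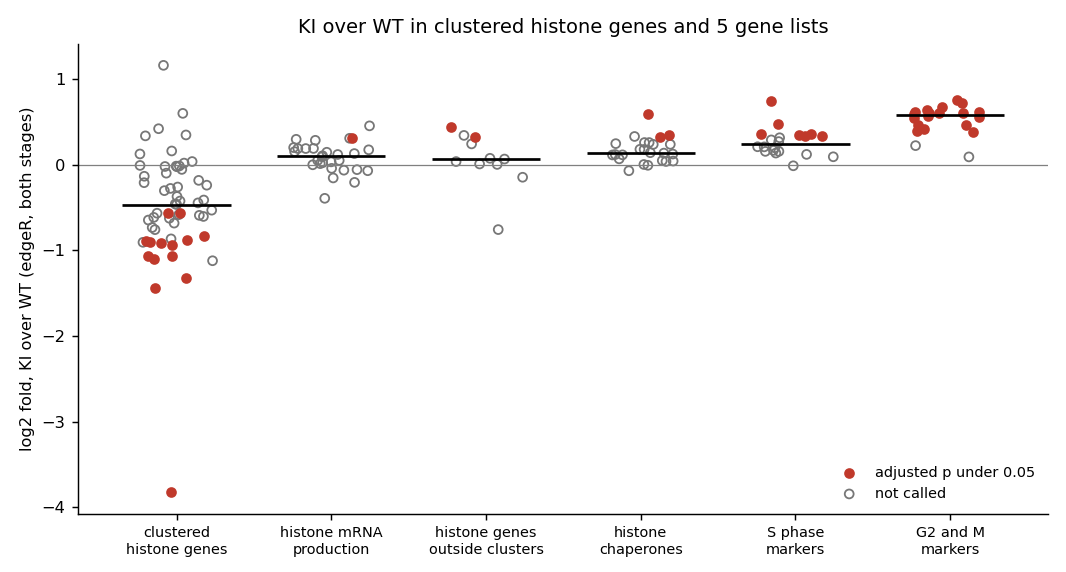
Log2 KI over WT difference (edgeR, both stages, 4 libraries) of each tested clustered histone gene and of 5 gene lists, with genes at an adjusted p under 0.05 filled and the median as a line. The clustered histone genes have a median of -0.46, and the G2 and M markers a median of 0.58. The fit took all cells, and the KI libraries held more cells called S or G2M.

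Transcript ends did not order the genotype difference as they did the phase difference. Medians were -0.56 for hexamer ends (2 of 9 lower), -0.78 for genes running past the stem-loop (5 of 12 lower), -0.46 for stem-loop ends (3 of 18 lower) and -0.18 with no stem-loop found (4 of 18 lower).

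The stages differed less, and the direction depended on which cells were compared. The sum of all members was higher in DN4 than in DN3 by a log2 ratio of 0.13 in WT (interval 0.11 to 0.16) and 0.34 in KI (interval 0.32 to 0.37). Over both genotypes 21 of 57 tested members were higher in DN4 and 3 were lower (edgeR, background 22.5% and 22.4%), so that the share called higher was above the background and the share called lower was below it. The 3 lower were Hist3h2ba (-0.93), Hist3h2a (-1.32) and Hist2h2be (-0.53), which all have hexamer ends. The highest called among the named genes were Hist1h3g (1.24) and Hist1h2bm (1.11).

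In single libraries 0 of 19 genes were 2-fold apart in WT (background 3.82% higher and 4.41% lower). In KI, 6 of 17 were at least 2-fold higher in DN4 (background 2.68%) and 1 was lower (background 5.05%). The 6 were Hist1h2bj (2.82-fold, 33.8 and 95.4 CPM), Hist1h4d (2.64-fold), Hist1h2bm (2.61-fold), Hist1h2ab (2.44-fold), Hist1h2ak (2.11-fold) and Hist2h2bb (2-fold), and the lower one was Hist3h2ba (2.34-fold). DN4 libraries held more S and G2M cells and other cell types. NK, innate lymphoid or NKT markers (8 of 9 genes listed) summed to 533, 463, 1403 and 1313 CPM. Within phases the DN4 over DN3 ratio of the sum varied. It was 0.046 in WT and 0.38 in KI in S cells, -0.58 and 0.013 in G2M cells, and -0.35 and -0.61 in G1 cells. Over clusters 3 and 4 together it was -0.43 in WT and 0.0097 in KI. Taken singly, cluster 3 had 0.14 in WT and 0.55 in KI, and cluster 4 had -0.30 and 0.22. The fit over clusters 3 and 4 together called 0 of 52 higher and 3 lower (edgeR, background 2.84% and 3.75%, 12 at an unadjusted p under 0.05).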

How the data were processed

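UMI counts per gene and cell were deposited by the authors as 1 sparse matrix over the cells of all 4 libraries, with a table of cells giving library, cluster and phase. The submitters' processing notes name build mm10 and Cell Ranger (versions 3.1.0 and also 6.0.1), with no role per step, and the method of the phase call is not given in the sources used here. Reads of the T cell receptor libraries were not used here. The cells were used as deposited. No doublet caller was run and doublets were not removed. UMIs were summed per library, per library and phase (12 sums, each with at least 20 cells) and per cluster. Total UMIs were 22652454, 25525613, 16411164 and 30402236 (DN3 before DN4, WT before KI).

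CPM divides by all UMIs of the same cells. Phase was tested with the edgeR 4.0.16 quasi-likelihood test (filterByExpr, TMM, library as block), and genotype and stage with an additive fit on 4 library sums, with Benjamini-Hochberg adjustment over all tested genes. Single libraries were compared by CPM ratio with an exact conditional binomial (Poisson) 95% interval, and set apart at 2-fold among genes with 20 CPM or more in either library. On simulated counts the phase fit recovered 98% of 200 genes changed 2-fold and 56.5% of those changed 1.5-fold (S against G1), and the genotype fit 89% and 9.5%. False calls numbered 9 and 4 in the phase fit and 14 and 1 in the genotype fit. All simulated sums shared a common profile and a fixed dispersion, without differences of stage or cell type. These shares are therefore not the power in the real data. Transcript ends came from GENCODE models of GRCm38 and promoters from RefSeq (GRCm38.p6).

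The genes and lists were chosen with earlier results of these data known. Named were class sums, the 12 genes with the highest mean CPM, the 6 highest and 6 lowest S over G1 differences, genes 2-fold apart in a single-library comparison, up to 4 genes per companion list, and members where a count was 5 or fewer. Alternatives were DESeq2, no low-count filter, each library left out, TMM scaling, a 5 CPM minimum, subsets of cells, and the sum without its highest gene. Fits in G1 cells, in G2M cells and in clusters 3 and 4, ratios in G2M cells, comparisons within single clusters, and the chromosome 13 blocks without their highest gene, were added after seeing the data.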

Additional observations from a re-analysis of the deposited data

Results flagged for a closer look

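Some genes moved one way in one stage or genotype and the other way in the other. These differences were not tested. Hist3h2ba had a log2 KI over WT ratio of 0.15 in DN3 and -0.31 in DN4. Hist1h2bm had -0.43 in DN3 and 0.29 in DN4. Hist1h4i had 0.15 in DN3 and -0.74 in DN4, and Hist1h4d had -0.58 in DN3 and 0.49 in DN4.

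For DN4 over DN3, the H3 class sum had a log2 ratio of -0.13 in WT and 0.17 in KI. Hist1h3e had -0.51 in WT and 0.59 in KI, and Hist1h1a had -0.48 in WT and 0.11 in KI. Each value is the ratio of 1 library to 1 library.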

How the results depend on the processing

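No paired analysis of genotype or stage was possible because the labels number no replicates and each group is 1 library. Phases were compared within libraries. Members called for S against G1 and G2M against G1 stayed within 1.5 times of their counts under every setting that ran, except that S against G1 within clusters gave 3 higher and 1 lower, and that leaving out 1 library in turn gave 0 to 1 genes lower in G2M than in G1 (1 without WT DN3). S against G1, and its interaction with genotype, could not be fitted within clusters 3 and 4 for lack of G1 cells. Genes lower in S than in G2M numbered 1 to 4 when a library was left out, and 30 lower and 1 higher within clusters 3 and 4. Genes lower in KI over both stages numbered 6 by DESeq2, 25 of 65 without a low-count filter, 4 in G1 cells (with 1 higher), 2 of 49 in G2M cells, 23 in cluster 4 and 2 in cluster 3. Genes higher in DN4 numbered 9 of 57 by DESeq2, 10 in S cells, 1 of 38 in G1 cells, and 0 in G2M cells and in clusters 3 and 4. Those lower numbered 1 of 57 by DESeq2, 8 without the filter, 1 in S cells, 11 of 38 in G1 cells and 1 in G2M cells. Outside clusters 3 and 4, no share over all genes was computed for these stage counts. The same holds for KI over WT in G2M cells and without the filter. Such counts are not set against a background here, so whether they differ from the share over all genes is not known.

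For KI over WT in DN3, the log2 ratio of the sum was -0.94 in S cells, -0.39 in G1 cells, -1.19 in G2M cells, -1.10 in clusters 3 and 4 (-0.51 in cluster 3 and -1.21 in cluster 4), -0.39 in clusters 0 and 1, -0.57 without the 2.5% of cells with the most UMIs, and -0.59 without Hist1h1a. Genes at least 2-fold lower numbered 12 at 5 CPM, 10 in S cells, 3 in G1 cells, 17 in G2M cells, 14 in clusters 3 and 4, and 3 in clusters 0 and 1. In DN4 the ratio was -0.36 with TMM scaling, -0.60 in S cells, -0.65 in G1 cells, -0.59 in G2M cells, -0.66 in clusters 3 and 4 (-0.097 in cluster 3 and -0.69 in cluster 4), and -0.44 without Hist1h1a, with 6 genes at 5 CPM and 5 each in S cells, G2M cells and clusters 3 and 4.

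For DN4 over DN3 in WT, the ratio of the sum was 0.046 in S cells, -0.35 in G1 cells, -0.58 in G2M cells, -0.43 in clusters 3 and 4, 0.27 without the cells with the most UMIs and 0.22 without Hist1h1a, and genes at least 2-fold higher numbered 3 at 5 CPM, 1 in G1 cells and 1 without those cells, while those at least 2-fold lower went from 0 to 2 in G1 cells, 3 in G2M cells and 2 in clusters 3 and 4. In KI it was 0.46 with TMM scaling, 0.38 in S cells, -0.61 in G1 cells, 0.013 in G2M cells, 0.0097 in clusters 3 and 4 and 0.37 without those cells, with 10 genes at 5 CPM, 3 in S cells, and 0 in G1 cells, G2M cells and clusters 3 and 4, and the 1 gene lower became 5 in G1 cells, 1 in G2M cells, and 0 in S cells and in clusters 3 and 4. Single genes also changed sign. For KI over WT in DN3, Hist1h1b went from 0.13 to -0.44 and Hist1h4i from 0.15 to -0.27 in clusters 3 and 4, and Hist1h2ap from -0.21 to 0.59 and Hist1h1e from -0.17 to 0.27 in clusters 0 and 1. For DN4 over DN3 the sign changes follow. Over both genotypes these were Hist3h2ba in S cells (0.037), Hist1h1b in G1 (-1.82) and G2M cells (-0.14), Hist1h2ap in G1 cells (-0.96), G2M cells (-0.25) and clusters 3 and 4 (-0.14), Hist1h2bj in G1 (-0.038) and G2M cells (-0.049), Hist1h2ae in G1 cells (-0.29), G2M cells (-0.031) and clusters 3 and 4 (-0.063), and Hist1h4d in G1 cells (-0.23). In KI they were Hist1h2ak (-0.76) and Hist1h2ab (-0.38) in G1 cells. The stem-loop count was 22 in the last 100 bases. The causes were not tested.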
